A study of Bos taurus with 40 samples.

Results

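WNT5B was followed here as 1 cDNA probe, CN435723, of the 10184 named cDNA probes spotted on nylon arrays that were hybridised with RNA of bovine conceptuses at Day 18, taken from their extra-embryonic tissue. The probe was chosen because the study paired it with WNT5B and selected it for a higher level in SCNT High than in IVP conceptuses, on these same arrays. The levels in those groups and the difference between them are therefore a description, and no test of them is given. The study also reported WNT5B as higher in SCNT High than in IVP by quantitative PCR, a measurement that was not examined here. The 40 arrays comprised 10 of each of 4 reproduction modes. IVP conceptuses came from embryos produced in vitro and served as controls, and the others came from somatic cell nuclear transfer (SCNT) with ear skin fibroblasts of 3 Holstein females. The donor lines were 5538 (SCNT High), 7711 (SCNT Med) and 0029 (SCNT Low), named for the calving success of their clones, so each SCNT group stands for 1 donor line and donor and success cannot be told apart. All conceptuses had been transferred as blastocysts to recipient cows, several to a cow, and the labels used here do not tell which conceptuses shared a cow. Arrays of conceptuses from artificial insemination were not analysed here. The study states that all SCNT conceptuses were female, whereas by its listing not all IVP conceptuses were. It reported no effect of sex in its own array comparisons. The labels used here do not give the sex of each conceptus. Differences between SCNT groups and IVP may therefore include a difference in sex, and the part of sex in the WNT5B levels was not tested.

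WNT5B is a secreted glycoprotein of the Wnt family, which binds Frizzled receptors and ROR co-receptors on neighbouring cells. It is best known for signalling that does not pass through beta-catenin and that acts on cell movement, polarity and tissue elongation. Around Day 18 the bovine conceptus is an elongating sac of trophoblast lined by endoderm, and this sac was the tissue that was sampled. In such a bulk tissue, fewer cells of a type and less RNA per cell cannot be told apart.

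In the RefSeq annotation of the bovine genome (ARS-UCD2.0), WNT5B is a protein-coding gene on chromosome 5 with 3 listed transcripts, between ERC1 and ADIPOR2. FBXL14, which encodes an F-box protein, lies within its span. A spotted double-stranded cDNA does not tell the strands apart, and cross-hybridisation with related Wnt transcripts such as WNT5A was not tested. The 2 oligonucleotides below are the designed PCR primers with which the study amplified WNT5B. They are shown because the study lists them beside this probe under the name WNT5B. Neither the primers nor the clone were aligned to a transcript here. Each is 20 bases long, printed 5′ to 3′, and the product is 108 bp.
WNT5B forward primer: tggactacggctaccgcttc
WNT5B reverse primer: tttgcaggttcatgagcacg

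Levels are given as the log2 of the mean spot signal minus the mean of that log2 value over all cDNA probes of the array, so that 0 is the array mean and 1 is a doubling of signal. By the dates in the files the arrays fall into 3 sessions of quantification, with adjoining days joined, and these were taken as batches. In session 1 there were 7 arrays each of IVP and SCNT Med and 3 each of SCNT High and SCNT Low. Session 2 held 5 arrays of SCNT Low and 3 of every other group. Session 3 held 4 SCNT High and 2 SCNT Low arrays only. The median signal of the cDNA probes ranged from 22.9 to 162 between arrays, and their median ratio of signal to local background from 4.85 to 8.99. The number of arrays limits the precision of every comparison. The labels name 1 conceptus per array, so p-values measure the spread between conceptuses, some of which may have shared a cow.

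The WNT5B spot was brighter than most cDNA probes on nearly all arrays, with a median of 85.7% of the probes dimmer. Its raw signal ranged from 10.1 to 3760 with a median of 274. Its ratio to the local background had a median of 6.45, near the 6.37 that was the median of the array medians over all cDNA probes. Among the cDNA probes, 8492 were brighter than the spot of water on at least 30 arrays. WNT5B was brighter than water on 39 of 40 arrays. The exception was the SCNT Low array BC202, on which the spot reached 10.1 over a local background of 8.12 and was the only WNT5B spot marked empty by the quantification software. On 5 of the 6 arrays of session 3 the WNT5B spot was marked poor, a mark that occurred only in that session. On these 6 arrays, between 2067 (BC273) and 2847 (BC272) of the 10184 cDNA spots were marked poor. The marked spots are included below unless stated otherwise.

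In IVP conceptuses the level of WNT5B was 1.23 ± 0.63 (SD, n = 10). The lowest IVP level was 0.45 (BF189), the median 1.20 and the highest 2.18 (BF156). In SCNT High it was 2.24 ± 0.43 (SD, n = 10), from 1.42 (BC242) through a median of 2.28 to 2.79 (BC243). SCNT High was thus the group with the highest mean and the narrowest range.

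In SCNT Med the mean level was 1.94 ± 1.27 (SD, n = 10), from 0.28 (BC122) through a median of 1.73 to 4.05 (BC158). The highest arrays, BC158 at 4.05 and BC30 at 3.996, stood apart from the other 8, whose highest was 2.36. Without BC158 and BC30, a choice made after the values were seen, the SCNT Med mean was 1.43 ± 0.73 (SD, n = 8). In SCNT Low the mean was 1.46 ± 1.48 (SD, n = 10), from -2.12 (BC202) through a median of 1.96 to 2.59 (BC271). The next lowest SCNT Low array, BC254, lay at -0.16, and the other 8 lay between 1.55 and 2.59. Without BC202 the SCNT Low mean was 1.86 ± 0.83 (SD, n = 9). The order of the group means was thus SCNT High, SCNT Med, SCNT Low and IVP, whereas by medians SCNT Low lay above SCNT Med.

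**Figure D1:**
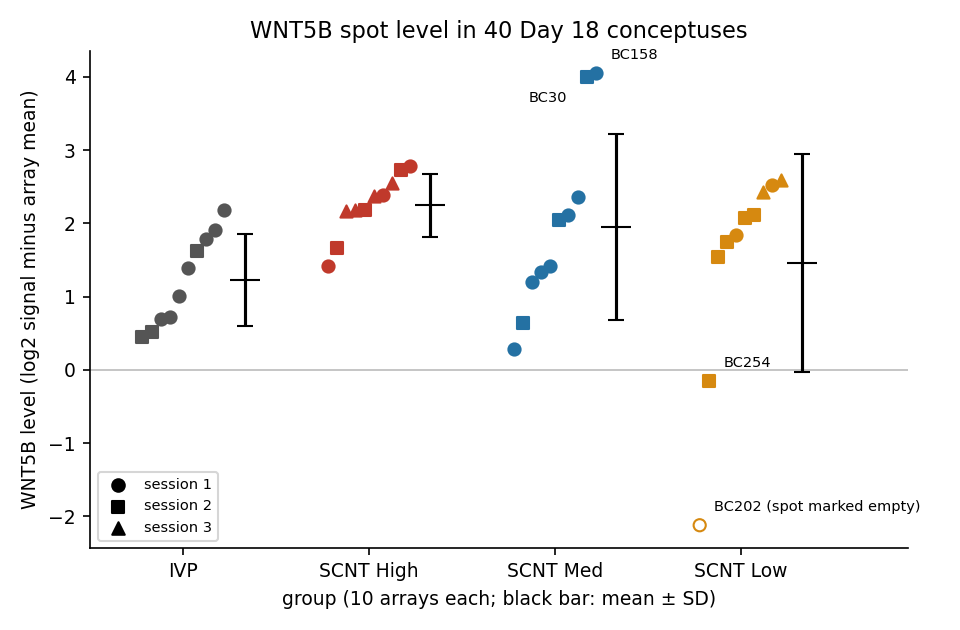
WNT5B level (log2 signal minus the array mean) of each conceptus by group, with 10 arrays per group in ascending order; circles, squares and triangles are sessions 1, 2 and 3, and the black bar is the mean ± SD. The SCNT High arrays lie between 1.42 and 2.79, BC158 and BC30 stand above all others, and BC202, drawn open, is the array whose WNT5B spot was marked empty.

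Every one of the 10 SCNT High conceptuses exceeded the mean of IVP, and 7 exceeded the highest IVP conceptus, while 3 overlapped with the IVP range. Of all cDNA probes, 1.62% had every SCNT High array above the IVP mean, and as WNT5B was chosen on this contrast nothing is read from its being one of them. The mean difference was 1.02 on the log2 scale (standard error 0.23), a 2.02-fold higher signal in SCNT High. Within session 1 the difference was 0.81, with 3 SCNT High and 7 IVP arrays. Within session 2 it was 1.33, with 3 arrays of each group, and session 3 held no IVP array. Leaving out any single array kept it between 0.93 and 1.12. Relative to the other 7 cDNA spots of the 3 by 3 block on the membrane that holds WNT5B, the difference was 0.57 (standard error 0.27), as described with the membrane position.

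The remaining pairs of groups asked whether WNT5B also differed from IVP in the other donor lines, and between donor lines. They were tested with limma over all 10184 probes with Benjamini-Hochberg adjustment and a threshold of 0.10. All but SCNT Med against SCNT Low share arrays with the contrast on which WNT5B was chosen, so their intervals and p-values are not free of that choice. WNT5B passed the threshold in none of these 5 pairs. They were read 184 further times, with other settings or thresholds, within sessions or without 1 array. None of these readings passed its threshold either (smallest limma adjusted p 0.352). Missing the threshold does not show that the levels were alike.

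In SCNT Med, WNT5B lay 0.72 above IVP (standard error 0.41, 95% interval -0.12 to 1.56, limma adjusted p = 1.00). In this comparison 7 of 10 SCNT Med conceptuses exceeded the mean of IVP, 3 were above and 1 below every IVP array, and 0.363% of the probes had all 10 above that mean. No probe was called (0% of those tested, with 335 at an unadjusted p under 0.05). The difference was 0.44 within session 1 and 1.36 within session 2. In SCNT Low, the mean lay 0.23 above IVP (standard error 0.46, 95% interval -0.71 to 1.17, limma adjusted p = 1.00). Of its 10 conceptuses 8 exceeded the mean of IVP, 3 were above and 2 below every IVP array, and 0.285% of the probes had all 10 above that mean. Again 0% of the probes were called, with 344 at an unadjusted p under 0.05. The sign of this difference was not settled. It was -0.64 within session 1, which holds BC202, and 0.60 within session 2, and it was -0.05 with the session as a block. Without BC202 it was 0.63.

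Between the donor lines, SCNT High exceeded SCNT Med by 0.30 (standard error 0.38, 95% interval -0.49 to 1.09, limma adjusted p = 0.912). Here 8 of 10 SCNT High conceptuses exceeded the mean of SCNT Med and none its highest array. Of all probes 1.32% had all 10 above that mean, and the comparison called 0.00982%. The difference was 0.37 within session 1 and -0.04 within session 2. SCNT High exceeded SCNT Low by 0.79 (standard error 0.44, 95% interval -0.11 to 1.69, limma adjusted p = 1.00). The mean of SCNT Low was exceeded by 9 of the 10 SCNT High conceptuses, and 0.962% of the probes had all 10 above it. This comparison called 0.0982% of the probes, and WNT5B was not among them. The difference was 1.45, 0.73 and -0.19 within sessions 1, 2 and 3, and 0.39 without BC202.

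SCNT Med exceeded SCNT Low by 0.49 (standard error 0.55, 95% interval -0.65 to 1.63, limma adjusted p = 0.997). This is the pair that shares no array with the choice of the probe, and it called 0% of the probes, with 436 at an unadjusted p under 0.05. The direction by medians was the opposite, with SCNT Low 0.23 higher. Without BC202 the difference in means fell to 0.09. Neighbouring groups in the order of means, from SCNT High down to IVP, thus did not differ beyond their spread.

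**Figure D2:**
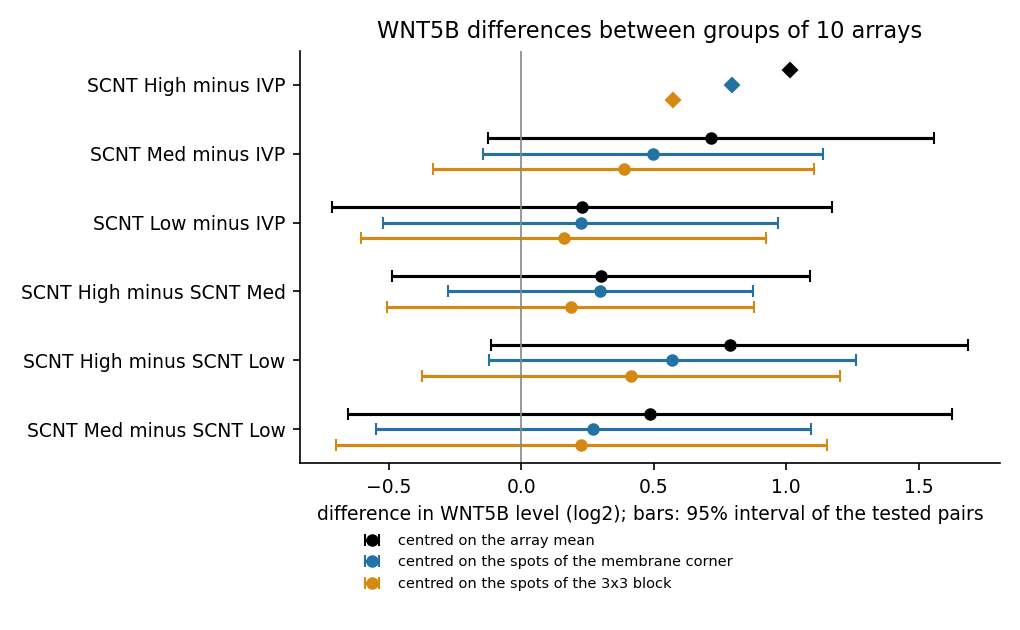
Difference in WNT5B level (log2) for the 6 pairs of groups of 10 arrays, after centring on the array mean, on the spots of the membrane corner, or on the 3 by 3 block. For SCNT High minus IVP, the pair on which the probe was chosen, the estimates are 1.02, 0.80 and 0.57, drawn as diamonds with neither interval nor test. Bars are 95% intervals from limma for the 5 tested pairs.

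The spread of single conceptuses around their group was compared next. The mean absolute deviation of WNT5B from the group median was widest in SCNT Med (0.97), followed by SCNT Low (0.89), IVP (0.55) and SCNT High (0.32). As the probe was chosen on the values of SCNT High and IVP, the spread of these groups is a description and no p is given for the 5 pairs that hold one of them. SCNT Med spread more widely than SCNT High by 0.65 and than IVP by 0.42, and SCNT Low more widely than IVP by 0.34, or -0.03 without BC202. For SCNT Low minus SCNT Med, which share nothing with the choice of the probe, the difference was -0.08 (two-sided permutation p = 0.872).

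Set beside the other probes as a description, the SD of WNT5B in SCNT Low exceeded that of 99.7% of all probes, and that in SCNT Med 97.8%. In IVP it exceeded 82.4% and in SCNT High 50.7%. Among probes whose mean level lay within 0.5 of that of WNT5B in the same group, the shares were 99.0%, 96.5%, 66.7% and 32.2%. The high ranks rested in part on 3 arrays. Without BC202 the SD in SCNT Low fell from 1.48 to 0.83, above that of 86.9% of all probes and 73.4% of those of like level. Without BC30 and BC158 the SD in SCNT Med fell from 1.27 to 0.73, above 89.2% and 80.1%.

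The difference in WNT5B between the first 2 sessions was smaller than its error. With the group as a term, session 2 exceeded session 1 by 0.14 (standard error 0.38, limma adjusted p = 0.849), in a comparison that called 12.8% of the probes. Without the empty spot of BC202 the difference was -0.18. The 6 arrays of session 3 held narrow ranges, from 2.17 to 2.55 in 4 SCNT High arrays and 2.43 and 2.59 in SCNT Low. The 2 SCNT Low arrays of that session were thus among the 3 highest of their group.

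The level of WNT5B rose and fell with the levels of the spots in its part of the membrane. The array is laid out as 144 rows by 72 columns of spots in blocks of 3 by 3, and WNT5B sits in row 138 and column 3, near a corner. The 245 other named cDNA spots of the 6 by 5 blocks at this corner were brighter than the array mean in every group, with mean levels of 1.32 in both SCNT High and SCNT Med, 1.11 in SCNT Low and 1.10 in IVP. Over the 40 arrays, after subtracting group means, WNT5B correlated with this corner mean at Pearson r = 0.80 (rho = 0.72). The r was 0.72 without BC202 and BC158, the arrays farthest from the WNT5B median, 0.82 within session 1 and 0.88 within session 2. The lowest corner mean was that of BC202 (0.32), and the highest were those of BC30 (2.18) and BC158 (2.14), the same arrays that were extreme for WNT5B. These correlations are descriptions over arrays that share membrane, label and session.

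The higher level of SCNT High over IVP was shared in part by the spots around WNT5B. Of the 245 corner spots, 82.9% had a higher mean in SCNT High than in IVP, against 52.3% of all cDNA probes, and the corner mean was 0.22 higher. The 7 named spots of the same block were on average 0.44 higher, and 6 of them were higher. WNT5B minus the corner mean was 0.92 ± 0.30 in SCNT High and 0.13 ± 0.61 in IVP (SD, n = 10 each). For SCNT Med this value was 0.62 ± 0.85, and for SCNT Low 0.35 ± 1.15 (SD, n = 10 each). On this scale the 10 SCNT High conceptuses still all exceeded the mean of IVP, 5 of them above every IVP array, and the difference was 0.80. The SDs were lower than on the scale of the array mean in all 4 groups. The part that membrane position has in the WNT5B levels was not tested.

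**Figure D3:**
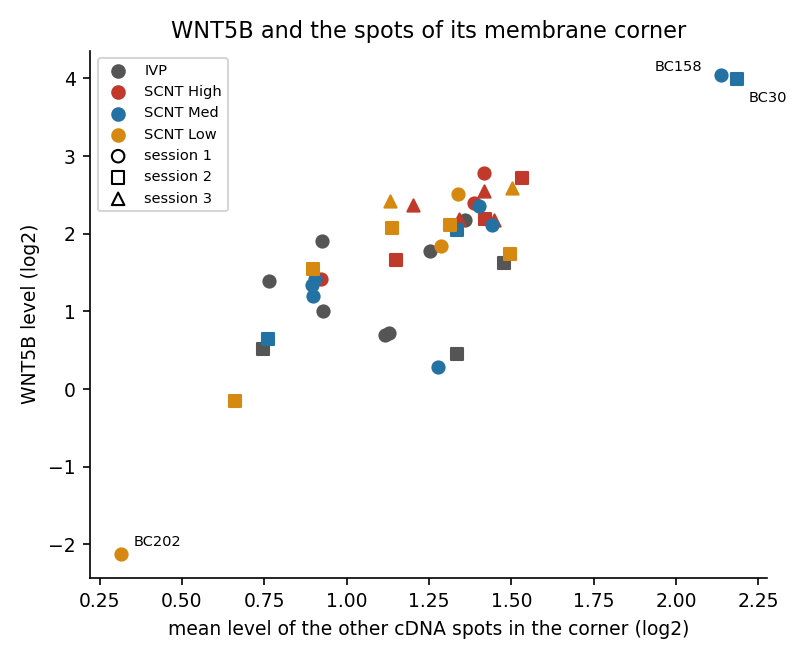
WNT5B level against the mean level of the 245 other cDNA spots in its corner of the membrane (both log2, relative to the array mean), 1 point per array, coloured by group and shaped by session. The points rise together (r = 0.80 after subtracting group means), with BC202 lowest on both axes and BC30 and BC158 highest.

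The 8 spots that touch WNT5B all correlated positively with it over the 40 arrays. CR551603, CN433969 and CR552248 had r = 0.78, 0.75 and 0.69, while the very bright spots CR553301 and CN432832, which share a side with WNT5B, had only 0.26 and 0.16. On BC202, 4 of the 8 had their own lowest level, and CN433969 and CR552248 lay at -2.09 and -2.03. Of the 8, 6 were higher in SCNT High than in IVP, CN433969 by 1.06 and the spot without a name by 0.88. The local background around the WNT5B spot also rose and fell with its level, with r = 0.76 (Spearman rho 0.56, and r = 0.59 without BC202 and BC158). This background, which was not subtracted from the levels, was 53.3 ± 15.7 in SCNT High and 33.8 ± 16.9 in IVP (SD, n = 10 each). It exceeded the IVP mean on 9 of 10 SCNT High arrays and every IVP array on 5. With normexp correction for the local background and an offset of 50, SCNT High lay 0.95 above IVP. As a plain ratio of signal to local background, the groups lay closer, with medians of 7.24 in SCNT High and 6.01 in IVP. The part of the local background in the difference was not tested. By contrast with the local background, the median signal of the array had r = 0.22 with the WNT5B level. The r was -0.03 for the mean of the GAPDH spots and -0.05 for the mean of the actin spots.

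The probes most alike to WNT5B were sought among 8492 cDNA probes brighter than water on at least 30 arrays, by Pearson r over the 40 arrays with group means subtracted. The 5 highest were BM366074 (r = 0.83), bcaz0009a.c.11 (0.83), BM361838 (0.80), CN435043 (0.79) and CN433788 (0.78), against a median of -0.04 over all candidates. Their spots lay 2, 2, 8, 3 and 3 positions from WNT5B, counting the larger of the row and column offsets. In session 1 their r ranged from 0.75 to 0.89 and in session 2 from 0.80 to 0.94. After centring on the corner spots it ranged from 0.52 to 0.65. The 3 lowest, AW463541 (-0.61), AW463114 (-0.60) and AW464816 (-0.59), lay 109, 110 and 94 positions away. No gene name was given for these 8 probes in the sources used here.

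Likeness to WNT5B fell with distance on the membrane. Distance went in part with the origin of the clones. The named touching spots have names in CR, CN or BM, and the 3 least alike probes have names in AW. The paper lists clones named AW or BF in a different plasmid from those named CR or CN. It describes cDNA libraries of term placenta and of extra-embryonic and foetal tissues. Position and clone origin were not told apart here. The median r was 0.61 over 38 probes within 3 positions, 0.48 over 68 probes at 4 to 6, 0.35 over 516 probes at 13 to 24 and -0.15 over 5924 probes at 49 or more. Of the 50 probes most alike, 45 lay in the corner, which holds 2.89% of the candidates. WNT5B was not alone in this. The median over all candidates of their median r with probes within 3 positions was 0.46, and 81.7% of the candidates had a lower one than WNT5B.

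**Figure D4:**
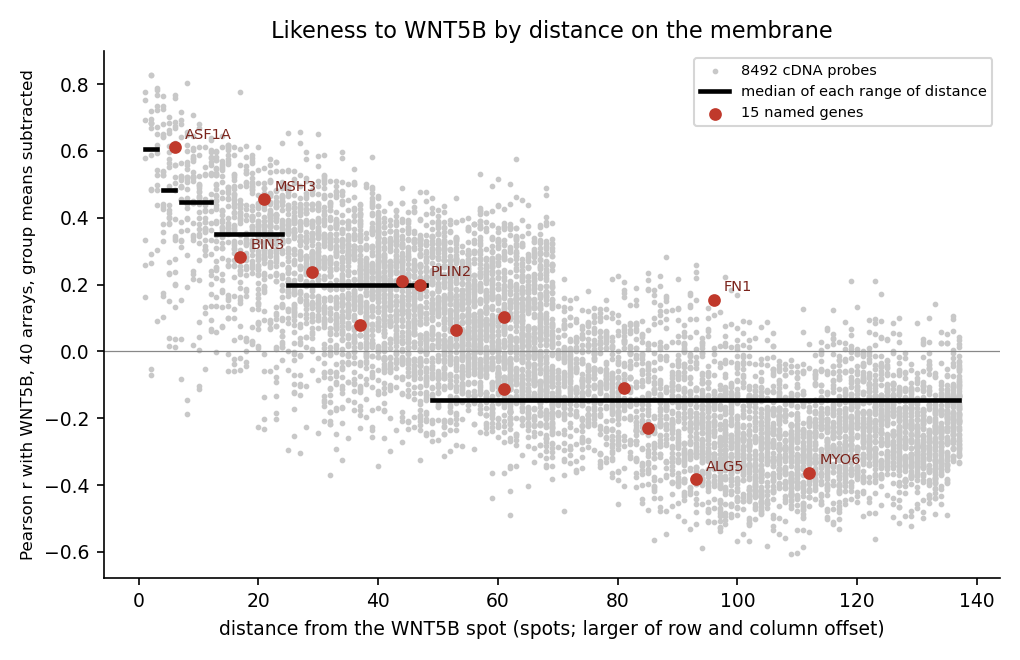
Pearson r with WNT5B over 40 arrays, group means subtracted, against the distance from the WNT5B spot in spot positions. Grey points are the 8492 candidate probes, black lines the median in each range of distance (0.61 within 3 positions, -0.15 at 49 or more) and red points the 15 other genes that the study paired with a probe.

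These 15 genes were set beside WNT5B with permutation of arrays within groups, and 1 of them passed after adjustment over the 15. ASF1A, a histone chaperone, rose and fell with WNT5B (r = 0.61, permutation p = 0.000180, adjusted 0.00270; rho = 0.51, permutation p = 0.00110, adjusted 0.0165). The r was 0.68 without BC202 and BC158, 0.58 within session 1 and 0.77 within session 2. It was positive within each group, being lowest in IVP (0.36), 0.54 in SCNT Med, and 0.78 and 0.80 in SCNT High and SCNT Low. The ASF1A spot lies 6 positions from WNT5B. Over the 68 probes at 4 to 6 positions the median r was 0.48, and 47.1% of them exceeded 0.5. The permutation takes no account of membrane position, so its p does not set ASF1A apart from other spots nearby. Centred on the corner spots, r was 0.34 (permutation p adjusted 0.0975), and centred on the 3 by 3 block 0.33 (adjusted 0.253), so that the call was lost under both.

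MSH3, a DNA mismatch repair protein, was next with r = 0.46 (permutation p = 0.00873, adjusted 0.0655; rho = 0.39, permutation p = 0.0166, adjusted 0.125), at 21 positions. Without BC202 it reached 0.55 (permutation p adjusted 0.0427). BIN3, an actin-regulating BAR-domain protein, gave 0.28 and PGAM5, a mitochondrial phosphatase, 0.24, both positive in session 1 (0.41 and 0.43) and negative in session 2 (-0.24 and -0.39). At the other end, ALG5, an enzyme of N-glycan precursor synthesis, gave -0.38 (permutation p = 0.0588, adjusted 0.221; rho = -0.31, permutation p = 0.0597, adjusted 0.239) and MYO6, an actin-based motor, -0.36 (permutation p = 0.0512, adjusted 0.221; rho = -0.23, permutation p = 0.174, adjusted 0.325). Their spots lie 93 and 112 positions away. Centred on the corner spots, r was -0.51 and -0.48, beside a median of -0.41 over the 5924 probes at 49 or more positions under the same centring. The other genes, C5orf13, EED, EIF2S3, CCNE1, LHFPL2, DFFA and the 3 tissue genes below, had r between -0.23 and 0.21, none past the threshold on the scale of the array mean.

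**Figure D5:**
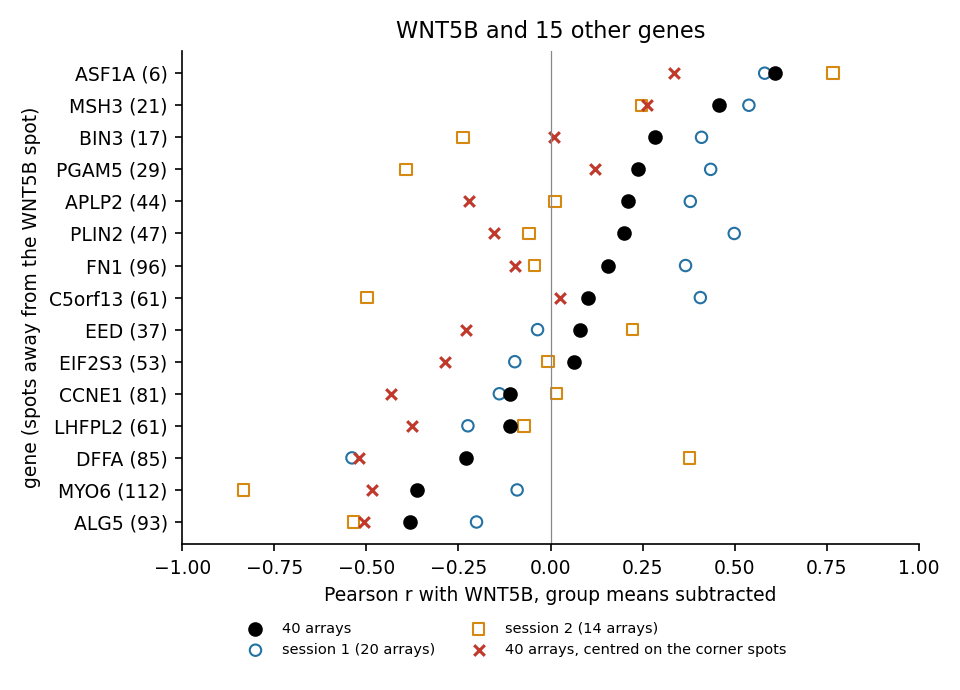
Pearson r of WNT5B with 15 other genes, group means subtracted, over 40 arrays (black), the 20 arrays of session 1 (blue circles), the 14 of session 2 (orange squares), and over 40 arrays centred on the corner spots (red crosses); the number beside each name is its distance from the WNT5B spot in positions. ASF1A, 6 positions away, is highest at 0.61 and falls to 0.34 with the corner centring.

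The make-up of the tissue was read from the few marker genes on the array. PLIN2, a lipid droplet protein that the study located in trophoblast, correlated with WNT5B at r = 0.20 (permutation p = 0.203, adjusted 0.338; rho = 0.27, permutation p = 0.0956, adjusted 0.239). FN1, the gene of fibronectin, and APLP2, an amyloid precursor-like protein, both located by the study in endoderm, gave 0.16 (permutation p = 0.311, adjusted 0.47; rho = 0.14, permutation p = 0.393, adjusted 0.50) and 0.21 (permutation p = 0.143, adjusted 0.307; rho = 0.27, permutation p = 0.0873, adjusted 0.239). PLIN2 was brighter than water on 39 arrays, FN1 on 40 and APLP2 on 39, so that markers of both tissue layers were detected. Within SCNT Med r was 0.49 for FN1, 0.59 for APLP2 and -0.15 for PLIN2. Within SCNT Low it was -0.20 for FN1, -0.19 for APLP2 and 0.59 for PLIN2. Within IVP and SCNT High the r of these genes lay between -0.01 and 0.37. Centred on the corner spots, r over the 40 arrays was -0.10 for FN1, -0.22 for APLP2 and -0.15 for PLIN2. Under that centring the median r was -0.28 over probes at 25 to 48 positions and -0.41 at 49 or more. BC158 and BC30, the highest arrays for WNT5B, were also the highest of all 40 for FN1 (4.54 and 3.42), and BC158 was the highest and BC30 the third highest for APLP2 (1.22 and 1.01). Their group means were lowest in SCNT Low (PLIN2 -0.74, FN1 1.38, APLP2 -0.29) and highest in SCNT Med (0.09, 2.69 and 0.48), an order that differs from that of WNT5B. POU5F1, a pluripotency gene of the embryonic disc that is also transcribed in bovine trophoblast, had a level between -1.93 and 0.74, with r = -0.12 to WNT5B. The part of tissue make-up in the WNT5B levels was not tested.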

How the data were processed

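Amplified RNA of each conceptus was labelled with 33P by the authors and hybridised to 1 membrane, and spots were quantified with Imagene. The deposited files give, per spot, the mean and median signal intensity, the local background intensity, a shape regularity fraction and a mark for empty or poor spots. A deposited table of log2 values, mean-centred by the authors, served as an alternative (r = 1.00 with the level used for WNT5B). Of the spots, 10184 named cDNA probes were analysed, while the 30 control spots and 154 unnamed ones entered no fit. The log2 signal was used without background subtraction and centred on the array mean. Pairs were fitted with limma 3.58.1 in R 4.3.3 over all probes; the authors' structural variance model was not run. Spread and correlations used 100000 permutations (10000 in alternatives of the correlations), two-sided, in Python 3.11.15 with numpy 2.4.6. The limma steps were tested on simulated data, where 74% to 86% of changes of 1 on the log2 scale were recovered in the 5 tested pairs. False calls numbered 16 to 25 per pair. The draws were independent and normal at the SD of each probe, without sessions or membrane position. The recovery is an average over random probes. WNT5B spread more widely than most probes in SCNT Med and SCNT Low, so the recovery does not give the power for WNT5B.

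Alternatives were normexp correction with an offset of 50, quantile normalization, other centrings, the spot median, session as a block, filters, array weights and leaving out arrays. The probe, the genes and the tests were chosen with earlier results of these data known. The named probes were the 5 most and 3 least alike to WNT5B, the 15 genes the study paired with a probe, and the touching spots.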

Additional observations from a re-analysis of the deposited data

Results flagged for a closer look

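In each group of 10 arrays, the gap of the highest or lowest array to its nearest neighbour was set against the range of the group and compared with Dixon's limit for groups of 10. For normally distributed values, chance alone exceeds this limit in about 1 of 20 groups. Of 52 groups of values examined (13 quantities in 4 groups), 9 exceeded it. The log2 level of WNT5B exceeded it in no group.

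The raw WNT5B signal stood apart on BC30 in SCNT Med (3760, the next being 1226), on BC244 in SCNT High (942, next 488) and on BF188 in IVP (609, next 261). These raw signals are not scaled to the array. Each of these arrays also had the highest median signal of its group (162, 102 and 135). BC30 also had the highest WNT5B signal over local background in SCNT Med (16.9, next 8.49). On BC202 in SCNT Low only 2.71% of the cDNA probes were dimmer than WNT5B, against 56.1% on the next array. Among the genes set beside WNT5B, MSH3 was low on BC256 in SCNT Low (-0.96, next 0.70), POU5F1 was low on BF152 in IVP (-1.93, next -0.59), PLIN2 was high on BC192 in SCNT Med (1.43, next 0.27) and FN1 was low on BC245 in SCNT High (-1.29, next 0.42).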

How the results depend on the processing

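SCNT High minus IVP was positive under all alternatives run, from 0.57 (centred on the 3 by 3 block) to 1.33 (within session 2), and from 0.93 to 1.12 without 1 array. The 5 tested pairs stayed short of the threshold in all 184 further readings, which include the main fits at thresholds of 0.05 and 0.20. SCNT Low minus IVP changed sign with the session as a block (-0.054), without session 3 (-0.033), with array weights (-0.069) and within session 1 (-0.64). SCNT High minus SCNT Med did so within session 2 (-0.036), SCNT High minus SCNT Low within session 3 (-0.19), and session 2 minus session 1 with the 3 by 3 block (-0.0089) and without marked spots (-0.18). Array weights moved SCNT Med minus IVP to 0.39 and SCNT High minus SCNT Med to 0.62. Without 1 array the ranges were 0.48 to 0.90 for SCNT Med minus IVP, 0.10 to 0.63 for SCNT Low minus IVP, 0.12 to 0.53 for SCNT High minus SCNT Med, 0.39 to 0.91 for SCNT High minus SCNT Low and 0.09 to 0.67 for SCNT Med minus SCNT Low.

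For spread, SCNT Low minus SCNT Med passed 0.05 under no alternative (smallest adjusted permutation p 0.295, without BC202). The other 5 pairs hold SCNT High or IVP, on whose values the probe was chosen, and no count of passing pairs is given for them. The mean absolute deviation of SCNT Low minus IVP (0.34) became -0.031 without BC202 and -0.039 without marked spots, and ranged from -0.031 to 0.41 without 1 array. That of SCNT Low minus SCNT Med (-0.08) became 0.093 with quantile normalization and 0.071 with deviations from the mean, and ranged from -0.45 to 0.10 without 1 array. Of the 15 genes, 1 passed in the correlations, 5 with normexp, 5 with the corner centring (all with negative r, at 61 to 112 positions, where the median r of all probes at 49 or more was -0.41), 0 with the 3 by 3 block, 3 without subtraction of group means and 2 without BC202. Of the 5 most alike probes, 1 remained with normexp, 2 with the 3 by 3 block, 3 with the corner, 3 with session means subtracted, 2 by Spearman rho and 2 without BC202. The median r of the 7 named touching spots, 0.58, was 0.28 with normexp. The cause of these changes was not tested. The corner centring, the fits without marked spots or BC202 and the fits within sessions were chosen after seeing the data. No paired analysis was possible because each array holds a different conceptus and the labels do not tell which conceptuses shared a cow.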
